A study of Arabidopsis thaliana with 6 samples.

Results

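MYB transcription factors were described here in 14-day-old seedlings of Arabidopsis thaliana in which the histone demethylase JMJ28 was reduced or raised. The members are the genes whose listed name starts with MYB followed by a number, together with PAP1 and PAP2, which the tables list as MYB75 and MYB90. Counts of MYB genes below cover these members only, so MYBL2, listed as ATMYBL2, is not among them. The tables listed 89 such genes, of which 79 had reads and a test and form the set described, out of 23542 tested genes in the whole series. The other 10 (MYB22, MYB24, MYB26, MYB64, MYB80, MYB89, MYB104, MYB110, MYB115 and MYB3R2) had no reads in any genotype. RNA was sequenced from whole Col-0 seedlings grown in long days at 22 °C. The groups are the mutant jmj28, the line JMJ28np5-OE and wild type (WT), with 2 libraries per genotype. The kind of lesion in jmj28, the promoter and number of transformants of JMJ28np5-OE, the meaning of np5, and whether libraries came from separate cultures are stated by no source used here. The p-values below therefore measure only the spread between these libraries, which may be technical.

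MYB proteins bind DNA through repeats of a helix-rich domain, and in plants most carry a pair of such repeats while the animal-like cell cycle members carry a further repeat. The Arabidopsis family is known for switching on or off whole branches of specialised metabolism, among them flavonols, anthocyanins, glucosinolates, lignin, suberin and cuticular wax, and for roles in abscisic acid and stress signalling, cell fate and mitosis. JMJ28 is a JmjC-domain protein of the KDM3 type, a class of enzymes that remove methyl groups from H3K9.

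Promoters are shown for MYB77, MYB73 and MYB96, the members that passed the test in JMJ28np5-OE against WT, and for MYB90, the called member with the greatest fold change in jmj28 against JMJ28np5-OE. Each is the 250 bases before the annotated gene start, written 5′ to 3′ on the gene's strand, read from the RefSeq genome TAIR10.1, in which all 89 members have the coordinates of the deposited TAIR10 tables. They lie at chr3:18559327-18559576 on the minus strand (MYB77), chr4:17540240-17540489 on the plus strand (MYB73), chr5:25081142-25081391 on the minus strand (MYB96) and chr1:24763691-24763940 on the plus strand (MYB90). Capitals mark the letters TTGAC, the core of the W-box bound by WRKY factors, read as GTCAA where it lies on the other strand, and CACGTG, the G-box.
MYB77: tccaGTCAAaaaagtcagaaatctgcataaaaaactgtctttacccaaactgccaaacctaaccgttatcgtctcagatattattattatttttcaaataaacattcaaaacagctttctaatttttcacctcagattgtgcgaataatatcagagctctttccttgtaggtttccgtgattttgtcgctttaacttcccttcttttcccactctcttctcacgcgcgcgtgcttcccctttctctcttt
MYB73: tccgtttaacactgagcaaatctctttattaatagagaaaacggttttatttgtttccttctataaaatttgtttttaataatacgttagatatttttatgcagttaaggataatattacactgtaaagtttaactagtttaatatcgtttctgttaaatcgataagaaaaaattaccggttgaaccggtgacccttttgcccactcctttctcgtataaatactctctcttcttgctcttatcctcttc
MYB96: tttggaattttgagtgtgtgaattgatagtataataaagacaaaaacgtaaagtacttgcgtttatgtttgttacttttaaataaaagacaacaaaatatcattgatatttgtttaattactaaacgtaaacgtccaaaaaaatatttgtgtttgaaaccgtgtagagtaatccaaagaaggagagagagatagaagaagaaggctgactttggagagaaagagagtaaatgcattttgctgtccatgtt
MYB90: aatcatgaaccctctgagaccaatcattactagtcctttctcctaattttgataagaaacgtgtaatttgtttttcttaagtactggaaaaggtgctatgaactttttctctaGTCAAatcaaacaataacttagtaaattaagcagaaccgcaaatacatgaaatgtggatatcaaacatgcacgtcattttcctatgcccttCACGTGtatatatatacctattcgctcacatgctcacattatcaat
On either strand, TTGAC occurred in the windows of 29 of the 79 members (36.7%), against 45.3% of 23400 windows of tested genes. It was in 4 of the 7 members that passed the test in any comparison, namely MYB51, MYB3, MYB90 and MYB77. CACGTG was in 5 of 79 members and 7.12% of all windows, and among the 7 it was in MYB90. CGCGTT, an element of rapid stress responses, was in 1 of 79 members, in 2.78% of all windows and in none of the 7. The motifs do not overlap one another in the windows printed.

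Levels are in RPKM, a read count divided by exon length and library size, and the level of a gene is the highest of its 3 genotype means. MYB genes were mostly low. Their median level was 2.19 RPKM, against 7.81 RPKM over all tested genes, and 49 of 79 (62.0%) reached 1 RPKM, against 80.8% of all tested genes. Only 11 reached 10 RPKM and 8 stayed under 0.1 RPKM, a level at which a genotype mean rests on a few reads. MYB28, an activator of aliphatic glucosinolate synthesis, had the highest level at 57.0 RPKM, followed by MYB73 at 31.4, MYB44 at 24.8 and MYB34 at 24.8 RPKM. The highest genotype mean belonged to JMJ28np5-OE in 36 of 79 members (45.6%), to jmj28 in 31 (39.2%) and to WT in 12 (15.2%). Over all tested genes these shares were 34.5% for JMJ28np5-OE, 43.1% for jmj28 and 22.3% for WT. A list of known roles covered 77 of the 79 members. That list had 129 entries, in which a gene can stand under more than 1 role, and 85 listed members were found in it. The role groups below therefore hold only tested genes matched by name, and may lack other genes known for the role.

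**Figure D1:**
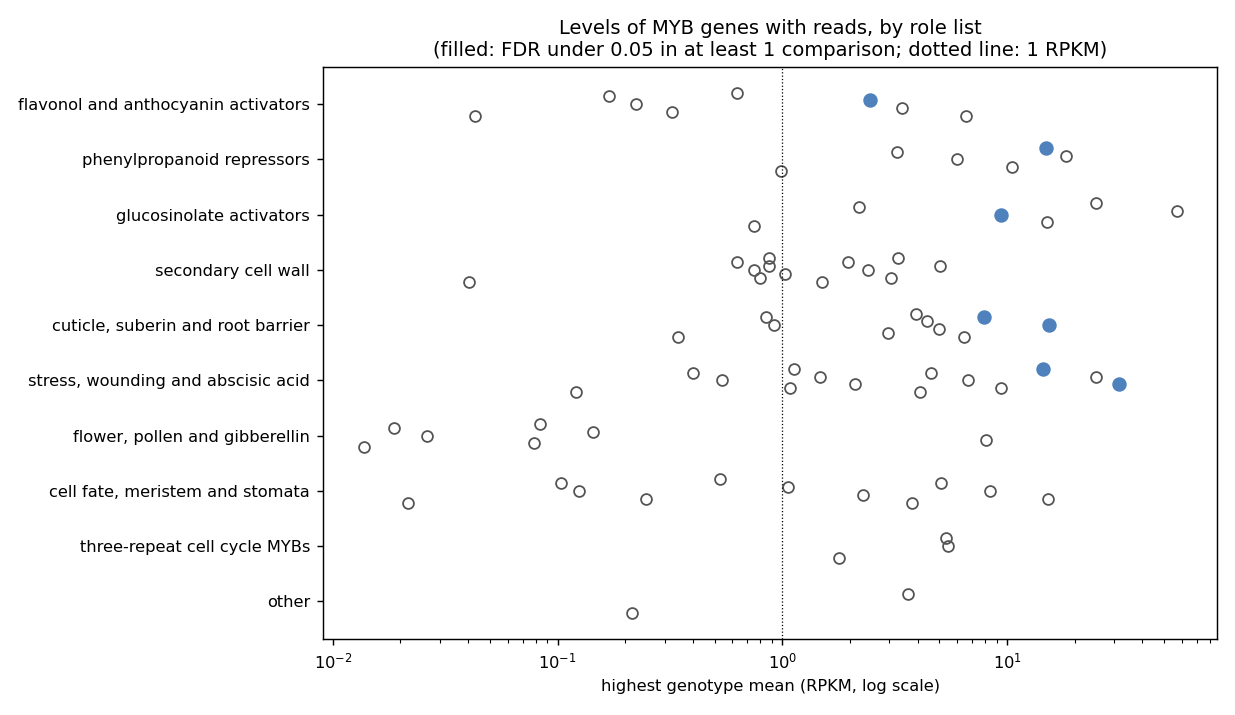
Highest genotype mean of each tested MYB gene in RPKM on a log axis, in rows by known role, 1 point per gene in each row. MYB75 (PAP1) stands both among the activators of flavonols and anthocyanins and among the secondary wall factors. Filled points are the 7 genes with an FDR under 0.05 in at least 1 comparison, and all of them lie to the right of the dotted line at 1 RPKM.

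The deposited tables hold genotype means and no value per library, but the whole reads of both libraries could be recovered from the means of the highest and second-highest genotype for all 79 members. The libraries are called deeper and shallower, since means carry no replicate number, and totals ran from 10632893 to 19693228 reads. The lowest genotype is known through the deposited fold change alone, and its value is called an implied mean. JMJ28 itself (AT4G21430) had 244 and 307 RPKM in the deeper and shallower JMJ28np5-OE libraries, against 6.90 and 6.50 RPKM in WT. Its log2 fold change in the authors' deposited table was -1.10 in jmj28 against WT (FDR = 3.07e-08) and 5.38 in JMJ28np5-OE against WT, where the FDR is listed as 0. In whole seedlings, fewer cells of a type and less RNA per cell cannot be told apart.

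By the authors' test, with a false discovery rate (FDR) under 0.05 over all listed genes, 3 MYB genes were higher and 0 lower in JMJ28np5-OE than in WT. The 3 are MYB77, MYB73 and MYB96. They make up 3.80% of the 79 members, beside 2.87% of all tested genes called higher, 0.684% called lower and 3.55% called in either direction. At an unadjusted p under 0.05 there were 14 members above WT and 0 below (17.7%), beside 8.61% of all tested genes above, 5.57% below and 14.2% in all. In jmj28 against WT 0 of 79 members were called in either direction, beside 0.208% of all tested genes called higher, 1.1% called lower and 1.3% in all. At an unadjusted p under 0.05 the mutant had 6 members (7.59%), beside 8.59% of all tested genes. Of these, MYB112, MYB92 and MYB59 were above WT and MYB51, MYB90 and MYB77 below it, which is 3.80% in each direction, beside 3.07% of all tested genes above and 5.52% below. In jmj28 against JMJ28np5-OE, 7 members were lower and 0 higher (with MYB3R4 added as higher at an FDR under 0.1), which is 8.86% of the members, beside 7.29% of all tested genes called lower, 4.12% called higher and 11.4% in all. At an unadjusted p under 0.05 there were 17 members (21.5%), beside 24.3% of all tested genes, with 3 members above JMJ28np5-OE (10.8% of all tested genes) and 14 below (13.6% of all tested genes). The shares of members called by FDR of members are small counts that lie near the background of their comparisons. The 3 comparisons share libraries in pairs, so their values are given side by side and not as separate evidence.

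The median log2 fold change of the 79 members was 0.16 in JMJ28np5-OE against WT, where 53 were above 0, beside a median of 0.00 over all tested genes. It was 0.04 in jmj28 against WT, with 41 above 0, beside -0.00 over all tested genes. It was -0.17 in jmj28 against JMJ28np5-OE, with 47 below 0, beside -0.02 over all tested genes. Of 23542 tested genes, 11913 were above 0 in JMJ28np5-OE against WT and 11596 in jmj28 against WT. In jmj28 against JMJ28np5-OE, 12191 of them were below 0. Of the 32 members whose 4 libraries were recovered in both JMJ28np5-OE and WT, 10 had both JMJ28np5-OE libraries above both WT libraries and 0 had both below. The groups thus did not overlap in 31.3% of those members, against 35.3% of 7660 tested genes with 4 recovered libraries, of which 2201 were above and 506 below. In jmj28 against WT 5 of 27 members were above and 1 below (22.2%), against 39.7% of 10833 tested genes, of which 3613 were above and 687 below. In jmj28 against JMJ28np5-OE 2 of 34 members were above and 9 below (32.4%), against 28.8% of 6443 tested genes, of which 797 were above and 1057 below. Apart from genes without reads in a genotype, 4 libraries are recovered only where the genotype outside the comparison is the lowest. Members lowest in jmj28, such as MYB77 and MYB96, thus enter neither count with jmj28. The splits into above and below are shaped by this selection, for members and for all tested genes.

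The stress and abscisic acid group held the call with the smallest FDR among the members. MYB77, a factor known for auxin-responsive gene expression and abscisic acid signalling in roots (AT3G50060, chromosome 3, 18557607 to 18559326, minus strand), had an implied mean of 4.46 RPKM in jmj28. It had 11.9 RPKM in the deeper and 16.9 RPKM in the shallower JMJ28np5-OE library, against 9.18 and 5.24 RPKM in WT. The JMJ28np5-OE libraries did not overlap those of WT, and the implied mutant mean lay below all 4. In the authors' deposited table MYB77 was 2.02-fold higher in JMJ28np5-OE than in WT (log2 fold change 1.02, FDR = 0.00103) and 3.36-fold lower in jmj28 than in JMJ28np5-OE (log2 fold change -1.75, FDR = 1.24e-10). The log2 fold change of -0.73 in jmj28 against WT did not pass there (FDR = 0.178). The gap to WT rests unevenly on the WT libraries. Without the shallower WT library the log2 ratio of RPKM means of JMJ28np5-OE to WT was 0.65, and without the deeper it was 1.46.

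MYB73, which is known to restrain salt stress responses (AT4G37260, chromosome 4, 17540490 to 17541799, plus strand), had 20.2 and 20.7 RPKM in the deeper and shallower jmj28 libraries. In JMJ28np5-OE it had 26.5 and 36.3 RPKM, and the implied WT mean was 20.4 RPKM. Both jmj28 libraries were close to the implied WT mean, and both JMJ28np5-OE libraries were above them. For MYB73 the authors' deposited table gave log2 fold changes of 0.65 in JMJ28np5-OE against WT (FDR = 0.00274), -0.68 in jmj28 against JMJ28np5-OE (FDR = 0.000628) and -0.03 in jmj28 against WT. MYB73 overlaps AT4G37270 on the opposite strand, and the library kit does not mark strand, so reads within the overlap cannot be told apart by strand. The part of the MYB73 reads that lies in this overlap was not measured. MYB44, a close relative that acts in stomatal closure, had an implied mean of 20.7 RPKM in jmj28, with 26.0 and 23.6 RPKM in JMJ28np5-OE and 22.7 and 20.2 RPKM in WT. The JMJ28np5-OE libraries were above those of WT by a narrow gap, MYB44 passed in none of the comparisons, and it overlaps 3 other gene models. MYB112, linked to anthocyanin formation under salt and strong light, had 1.01 and 1.25 RPKM in jmj28 and an implied mean of 0.44 RPKM in WT, from 13 and 14 reads in jmj28, and did not pass. Over the 14 tested members of the group, the median log2 fold change in JMJ28np5-OE against WT was 0.18, with 2 called higher. It was -0.03 in jmj28 against WT, with 0 called, and -0.22 in jmj28 against JMJ28np5-OE, with 2 called lower. Over all tested genes these medians were 0.00, -0.00 and -0.02. The shares of all tested genes were 2.87% called higher in JMJ28np5-OE than in WT and 7.29% lower in jmj28 than in JMJ28np5-OE.

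**Figure D2:**
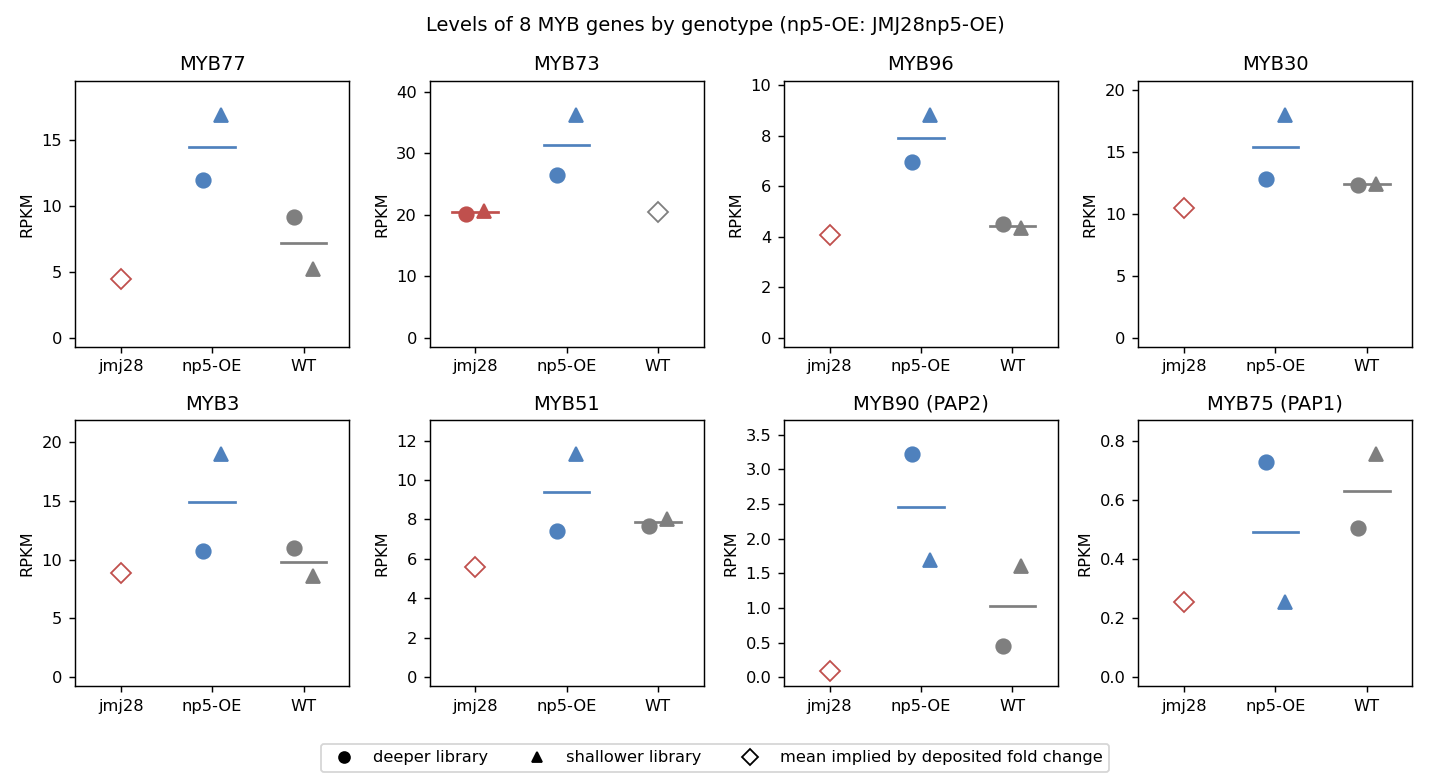
Level in RPKM of the 7 called MYB genes and MYB75, by genotype, with each axis starting at 0. Circles and triangles are the deeper and shallower library, bars are the mean of both, and open diamonds are means implied by the deposited fold change. In 6 of the 7 called genes the shallower JMJ28np5-OE library is the higher of its pair, and MYB90 is the exception.

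Among factors of the cuticle, suberin and root barrier, 9 of 10 tested members lay above 0 in JMJ28np5-OE against WT, beside 11913 of 23542 tested genes. The median log2 fold change of the 10 was 0.34, and 1 was called higher, beside 2.87% of all tested genes. That member is MYB96, an abscisic acid and drought factor that switches on wax synthesis (AT5G62470, chromosome 5, 25078991 to 25081141, minus strand). Its implied mean in jmj28 was 4.06 RPKM, and it had 6.95 and 8.83 RPKM in the deeper and shallower JMJ28np5-OE libraries, against 4.51 and 4.34 RPKM in WT. The JMJ28np5-OE libraries did not overlap those of WT. Its log2 fold changes in the authors' deposited table were 0.84 in JMJ28np5-OE against WT (FDR = 0.00497), -1.01 in jmj28 against JMJ28np5-OE (FDR = 0.000198) and -0.17 in jmj28 against WT. MYB30, which promotes very-long-chain fatty acid synthesis and cell death in defence, had an implied 10.5 RPKM in jmj28, 12.8 and 18.0 RPKM in JMJ28np5-OE and 12.4 and 12.4 RPKM in WT. Only the shallower JMJ28np5-OE library stood well apart from WT. In the authors' deposited table MYB30 was called in jmj28 against JMJ28np5-OE alone, with a log2 fold change of -0.61 (FDR = 0.00120). MYB36, which directs Casparian strip formation in the endodermis, had 2.77 and 3.005 RPKM in jmj28 and 4.44 and 3.40 RPKM in JMJ28np5-OE, with an implied WT mean of 2.21 RPKM. Its log2 fold change of 0.86 in JMJ28np5-OE against WT just missed the threshold in the authors' deposited table (FDR = 0.0559). In jmj28 against JMJ28np5-OE, 9 of the 10 members were below 0, beside 12191 of 23542 tested genes. The median of the 10 was -0.56, and MYB30 and MYB96 were called lower, beside 7.29% of all tested genes.

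Among 9 genes of suberin and wax synthesis, 3 were called higher in JMJ28np5-OE than in WT and 0 lower. Over all tested genes these shares were 2.87% and 0.684%, and 7.29% were called lower in jmj28 than in JMJ28np5-OE. The authors' deposited table gave CER3, an enzyme of alkane formation, a log2 fold change of 0.85 (FDR = 4.46e-08), its partner CER1 one of 0.32 (FDR = 0.0350), and CYP86A1, a hydroxylase of suberin fatty acids, one of 0.43 (FDR = 0.00210). In jmj28 against JMJ28np5-OE the same table called 3 lower, CER3 (-0.94), CER1 (-0.43) and CER6 (-0.45), an enzyme of wax chain elongation. None was called in jmj28 against WT, where the median was 0.03.

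Among the activators of flavonols and anthocyanins 1 gene was called, and it rests on few reads. MYB90 (PAP2, AT1G66390, chromosome 1, 24763941 to 24765541, plus strand), an activator of anthocyanin synthesis, had an implied mean of 0.09 RPKM in jmj28, about the worth of 1 read per library, which is 0.0738 and 0.0848 RPKM for a transcript of 1 kilobase. It had 3.22 and 1.69 RPKM in the deeper and shallower JMJ28np5-OE libraries, from 40 and 18 reads. In WT it had 0.46 and 1.60 RPKM, from 9 and 23 reads. Each JMJ28np5-OE and WT library lay above the implied mutant mean, and the lower JMJ28np5-OE library stood close to the higher WT library. For MYB90 the authors' deposited table gave log2 fold changes of -4.89 in jmj28 against JMJ28np5-OE (FDR = 0.000358), -3.57 in jmj28 against WT (FDR = 0.102) and 1.31 in JMJ28np5-OE against WT (FDR = 0.316). With so few reads in the mutant the size of these folds depends on how the authors' fit handled low counts. As a ratio of RPKM means with a pseudocount of 1 the value in jmj28 against JMJ28np5-OE was -1.67, and with 0.1 it was -3.77. Without the deeper JMJ28np5-OE library the ratio was -4.27. A deposited list of 533 genes lower in jmj28 than in WT applies an unadjusted p under 0.05 and a fold of at least 1.5. It was searched for the members only, and of these it held MYB90 and MYB77. MYBL2, which is not a member, had a log2 fold change of -0.65 in jmj28 against WT (FDR = 0.0259) in the authors' deposited table.

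MYB75 (PAP1, AT1G56650, chromosome 1, 21233555 to 21235292, minus strand), the best-known anthocyanin activator, had an implied 0.25 RPKM in jmj28, 0.73 and 0.25 RPKM in JMJ28np5-OE and 0.50 and 0.76 RPKM in WT. The recovered libraries held 3 to 12 reads each, the JMJ28np5-OE and WT libraries overlapped, and no comparison passed. MYB113 and MYB114, which lie beside MYB90 and are near copies of it, held at most 4 reads in any recovered library, and how the authors' counting split reads between these copies is not known. The flavonol activators MYB12 and MYB111 were the best expressed of the group. MYB12 had 6.25 and 6.86 RPKM in jmj28, an implied 4.88 RPKM in JMJ28np5-OE and 5.45 and 5.34 RPKM in WT. MYB111 had 2.98 and 2.65 RPKM in jmj28 and 3.81 and 2.997 RPKM in JMJ28np5-OE, with an implied 2.26 RPKM in WT. Neither passed in any comparison. In the authors' deposited table MYB12 and MYB111 had log2 fold changes of -0.12 and 0.62 in JMJ28np5-OE against WT. Of the 8 tested members 5 were below 1 RPKM, so no median is given for the group, and MYB90 was its 1 call. Of all tested genes 7.29% were called lower in jmj28 than in JMJ28np5-OE.

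Between jmj28 and JMJ28np5-OE, the called early enzymes of the pathway were all higher in jmj28. The few called late enzymes went both ways, although 7 of the 8 late enzymes, called or not, lay lower in jmj28. Of 9 early flavonoid enzymes, 5 were higher in jmj28 than in JMJ28np5-OE and 0 lower, and in jmj28 against WT 2 were higher. Of all tested genes 4.12% were called higher and 7.29% lower in jmj28 than in JMJ28np5-OE. The share called higher in jmj28 than in WT was 0.208%. By the authors' deposited table F3H, a hydroxylase of flavanones, had log2 fold changes of 0.65 in jmj28 against WT (FDR = 9.86e-08) and 0.76 in jmj28 against JMJ28np5-OE (FDR = 1.27e-10), and CHIL, which aids chalcone formation, 0.37 (FDR = 0.0286) and 0.44 (FDR = 0.000972). CHS, the entry enzyme, was called in jmj28 against JMJ28np5-OE alone, with 0.58 (FDR = 0.000168) in the same deposited table. Of 8 late enzymes of anthocyanin formation, 2 were lower and 1 higher in jmj28 than in JMJ28np5-OE. TT19, a glutathione transferase that carries anthocyanins, had -1.16 (FDR = 0.0131), the glucosyltransferase UGT75C1 -0.84 (FDR = 0.0299) and UGT84A2, which glucosylates sinapate, 0.54 (FDR = 0.00268) in the authors' deposited table. Of these 8 genes 0 were called against WT in either line. In jmj28 against JMJ28np5-OE 7 of the 8 were below 0 and UGT84A2 alone above, with a median of -0.85. In JMJ28np5-OE against WT 7 were above 0, with a median of 0.54, and in jmj28 against WT 5 were below 0. Of 23542 tested genes, 12191 were below 0 in jmj28 against JMJ28np5-OE and 11913 above 0 in JMJ28np5-OE against WT. The bHLH and WD40 partners TT8, GL3, EGL3 and TTG1 were called in no comparison. Among 7 small repressors of this complex MYBL2 was the one called, with log2 fold changes of -0.65 in jmj28 against WT (FDR = 0.0259), 0.66 in JMJ28np5-OE against WT (FDR = 0.00536) and -1.32 in jmj28 against JMJ28np5-OE (FDR = 1.56e-11), each from the authors' deposited table.

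The repressors of phenylpropanoid synthesis were above WT in JMJ28np5-OE in 6 of 6 tested members and below JMJ28np5-OE in jmj28 in 6 of 6, with median log2 fold changes of 0.43 and -0.25. Of 23542 tested genes, 11913 were above WT in JMJ28np5-OE and 12191 below JMJ28np5-OE in jmj28. None of the 6 repressors was called against WT. In jmj28 against JMJ28np5-OE 1 was called lower, beside 7.29% of all tested genes. MYB3, which represses lignin and anthocyanin genes, had an implied 8.86 RPKM in jmj28, 10.7 and 19.0 RPKM in the deeper and shallower JMJ28np5-OE libraries and 11.02 and 8.58 RPKM in WT. The deeper JMJ28np5-OE library lay between those of WT. In the authors' deposited table MYB3 had -0.80 in jmj28 against JMJ28np5-OE (FDR = 0.0122) and 0.62 in JMJ28np5-OE against WT (FDR = 0.165). MYB4, which represses sinapate ester synthesis and is the most abundant of the group, had 16.6 and 16.0 RPKM in jmj28 and 18.0 and 18.6 RPKM in JMJ28np5-OE, with an implied 15.3 RPKM in WT. Both JMJ28np5-OE libraries lay above both of jmj28, but the differences did not pass.

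The 6 tested glucosinolate activators gave 1 call, lower in jmj28 than in JMJ28np5-OE, beside 7.29% of all tested genes. MYB51, which drives indole glucosinolate synthesis, had an implied 5.61 RPKM in jmj28, 7.42 and 11.3 RPKM in JMJ28np5-OE and 7.68 and 8.03 RPKM in WT. The JMJ28np5-OE libraries fell on either side of WT, and all 4 lay above the implied mutant mean. In the authors' deposited table MYB51 had a value of -0.80 in jmj28 against JMJ28np5-OE (FDR = 0.00271) and -0.52 in jmj28 against WT (FDR = 0.387). MYB34, its partner in the indole branch, had 24.4 and 25.2 RPKM in jmj28, an implied 21.7 RPKM in JMJ28np5-OE and 22.5 and 25.01 RPKM in WT. Of the aliphatic pair, MYB28 had an implied 46.9 RPKM in jmj28, 52.8 and 61.2 RPKM in JMJ28np5-OE and 45.0 and 48.9 RPKM in WT. MYB29 had an implied 11.5 RPKM in jmj28, 12.3 and 17.9 RPKM in JMJ28np5-OE and 11.8 and 13.8 RPKM in WT. The JMJ28np5-OE libraries were above those of WT for MYB28 and overlapped them for MYB29. In jmj28 against JMJ28np5-OE the log2 fold changes of MYB28 (-0.34, FDR = 0.0867) and MYB29 (-0.45, FDR = 0.0969) missed the threshold in the authors' deposited table.

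The called enzymes of the glucosinolate branches did not share 1 direction. In jmj28 against JMJ28np5-OE 13 of 15 aliphatic genes were below 0 (median -0.17), beside 12191 of 23542 tested genes, and 5 of 11 indole genes (median 0.07). In JMJ28np5-OE against WT 12 of the 15 aliphatic genes were above 0, with a median of 0.03. Of all tested genes 4.12% were called higher and 7.29% lower in jmj28 than in JMJ28np5-OE. The share called lower in JMJ28np5-OE than in WT was 0.684%. Of 15 aliphatic genes, 2 were higher in jmj28 than in JMJ28np5-OE and 2 lower, and in the authors' deposited table these were MAM3 (0.83), CYP79F2 (0.60), BAT5 (-0.47) and MAM1 (-0.36). MAM3, a chain elongation enzyme, was also the 1 aliphatic gene called in JMJ28np5-OE against WT, at -0.50 (FDR = 0.0423) in that deposited table. Of 11 indole genes, the methyltransferases IGMT1 and IGMT2 were lower in JMJ28np5-OE than in WT, with -0.80 (FDR = 0.000986) and -0.86 (FDR = 0.00266) in the authors' deposited table. Both were higher in jmj28 than in JMJ28np5-OE, each with 0.90, and UGT74B1 was lower (-0.27), while 0 genes of either branch were called in jmj28 against WT.

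**Figure D3:**
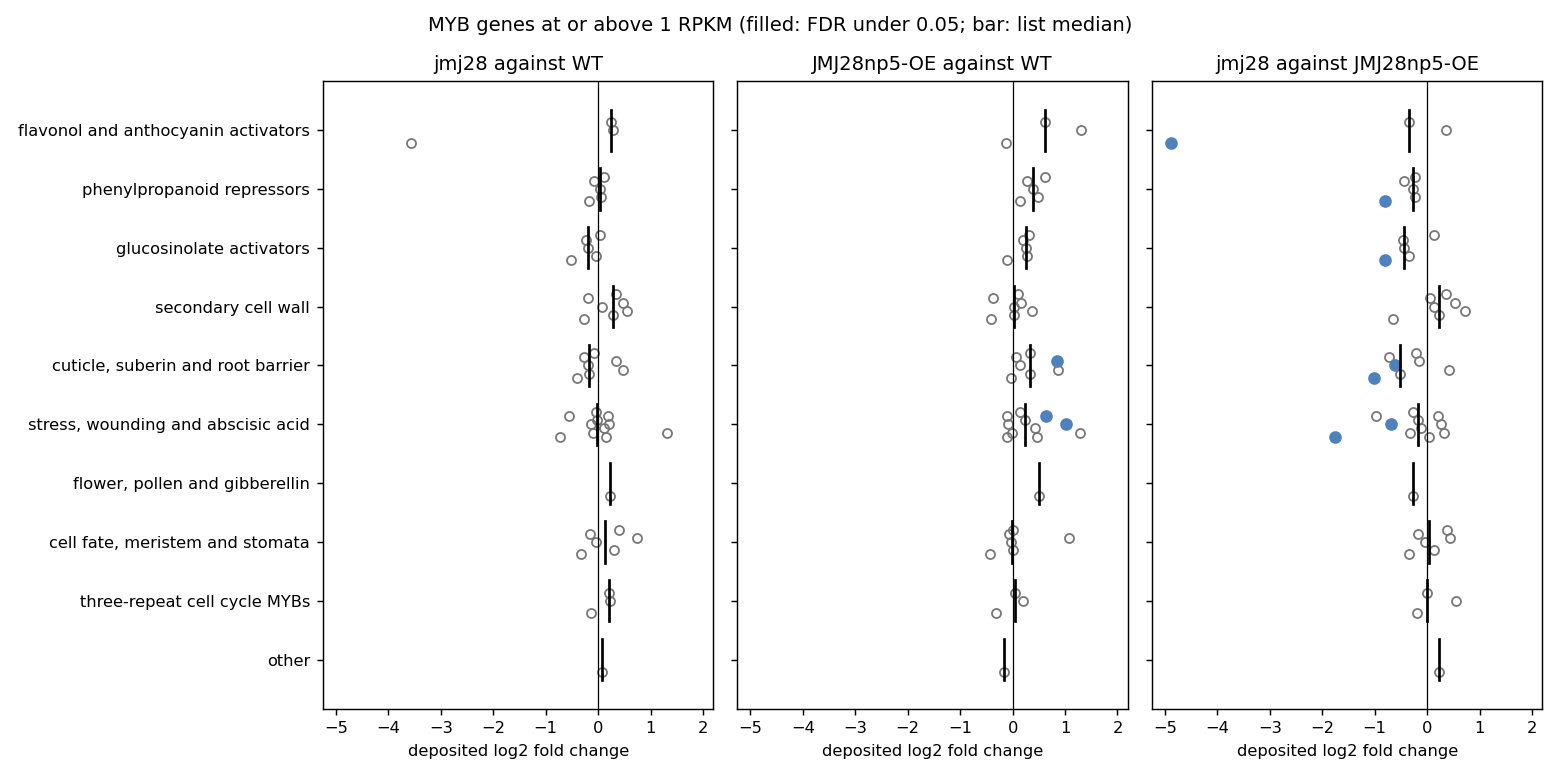
Deposited log2 fold change of the 49 MYB genes at or above 1 RPKM in the 3 comparisons, 1 point per gene in rows by role, with a bar at the median of each row. Filled points have an FDR under 0.05, and these are 0 in jmj28 against WT, 3 to the right in JMJ28np5-OE against WT and 7 to the left in jmj28 against JMJ28np5-OE.

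In the remaining groups 0 MYB genes were called in any comparison. The 13 tested secondary wall factors, which include PAP1 as the activators of anthocyanins do, had medians of 0.13 in jmj28 against WT, 0.02 in JMJ28np5-OE against WT and 0.12 in jmj28 against JMJ28np5-OE. The best expressed were MYB43, at 5.44 and 4.59 RPKM in jmj28 and 4.80 and 2.62 RPKM in JMJ28np5-OE, and MYB20, at 3.36 and 3.19 RPKM in jmj28 and 3.27 and 2.79 RPKM in JMJ28np5-OE, both known as activators of lignin and wall genes. Of all tested genes 4.12% were called higher and 7.29% lower in jmj28 than in JMJ28np5-OE. Of 12 tested secondary wall genes, 7 were higher in jmj28 than in JMJ28np5-OE and 0 lower, with a median of 0.64. The smallest FDR belonged to the lignin laccases LAC17 (1.00, FDR = 0.000279) and LAC4 (0.83, FDR = 0.00247) and to the xylem protease XCP1 (0.82, FDR = 0.000811) in the authors' deposited table. Against WT 0 of them were called in either line. In JMJ28np5-OE against WT 11 of the 12 were below 0, with a median of -0.52. In jmj28 against WT 10 of the 12 were above 0, with a median of 0.16.

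Of the 3 tested cell cycle members with a further repeat, MYB3R4, an activator of genes of the mitotic phase, had 5.55 and 5.32 RPKM in jmj28, an implied 3.56 RPKM in JMJ28np5-OE and 4.04 and 5.07 RPKM in WT. The jmj28 libraries were above those of WT. In the authors' deposited table its log2 fold change of 0.55 in jmj28 against JMJ28np5-OE missed the threshold (FDR = 0.0550). MYB3R-3, which represses the same kind of genes, had 6.28 and 4.44 RPKM in jmj28 and 4.48 and 5.91 RPKM in JMJ28np5-OE, with an implied 4.58 RPKM in WT, and the libraries overlapped. Of 6 mitotic genes known as targets of these factors, 2 were higher in jmj28 than in WT, CDC20.1 (0.59, FDR = 0.00254) and CYCB1;2 (0.53, FDR = 0.0250) by the authors' deposited table. Between jmj28 and JMJ28np5-OE, 4 were higher in jmj28, with KNOLLE, a cytokinesis protein, at 0.83 (FDR = 9.81e-07) in that deposited table. Of all tested genes 0.208% were called higher in jmj28 than in WT and 4.12% higher than in JMJ28np5-OE.

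MYB33, which acts in gibberellin responses and anthers, had 7.05 and 6.77 RPKM in jmj28 and 6.28 and 9.82 RPKM in JMJ28np5-OE, with an implied 5.80 RPKM in WT. The authors' deposited table gave 0.50 in JMJ28np5-OE against WT (FDR = 0.203). The other 6 tested members of the flower and pollen group were under 0.15 RPKM, the highest being the stamen factor MYB57 with 0 to 4 reads per recovered library. Among the 11 factors of cell fate, meristem and stomata, MYB59, which restrains root growth, had 14.8 and 15.7 RPKM in jmj28, an implied 10.8 RPKM in JMJ28np5-OE and 12.2 and 10.3 RPKM in WT. MYB124, known as FLP in stomatal division, had an implied 7.70 RPKM in jmj28, 8.65 and 7.83 RPKM in JMJ28np5-OE and 7.69 and 9.07 RPKM in WT. For MYB59 the jmj28 libraries were above those of WT, but its log2 fold change of 0.40 in the authors' deposited table did not pass (FDR = 0.574). The iron deficiency factors MYB10 and MYB72 were not among the tested members and were not analysed here. Of 9 iron and coumarin genes around them, 3 were higher in jmj28 than in WT, beside 0.208% of all tested genes. In the authors' deposited table these were IRT1 (0.97), FRO2 (1.01) and CYP82C4 (0.96). In JMJ28np5-OE against WT that table called IRT1 (0.74) and FRO2 (0.88) higher and NAS4 (-0.54) lower. In jmj28 against JMJ28np5-OE it called NAS4 (0.86) and F6H1 (0.55) higher. Over all tested genes 2.87% were called higher and 0.684% lower in JMJ28np5-OE than in WT, and 4.12% higher in jmj28 than in JMJ28np5-OE.

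**Figure D4:**
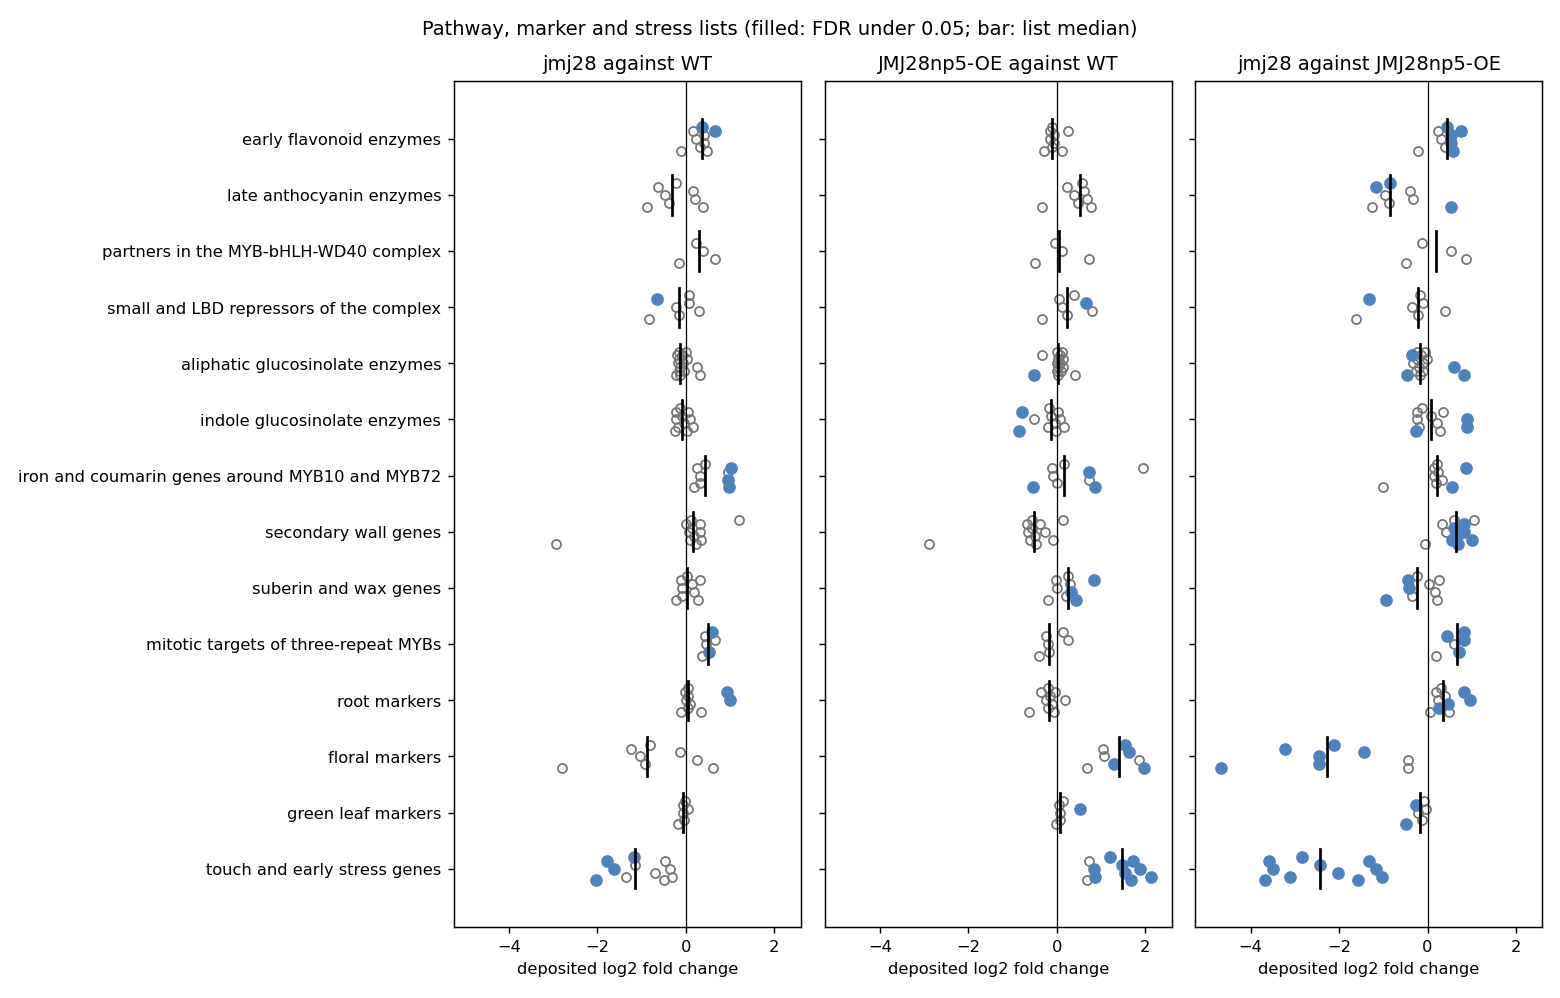
Deposited log2 fold change of 125 tested genes of pathways, markers and early stress responses in the 3 comparisons, 1 point per gene, with a bar at the median of each list and filled points for an FDR under 0.05. The touch and early stress genes lie to the right of 0 in JMJ28np5-OE against WT, 11 of 11, and to the left in jmj28 against JMJ28np5-OE, where 11 of 11 are called.

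The libraries of JMJ28np5-OE differed from each other. In 6 of the 7 called members the shallower library was the higher, with a median absolute log2 ratio of 0.50 between the pair. Among genes at or above 1 RPKM with recovered JMJ28np5-OE libraries, it was the higher in 24 of 37 MYB genes and in 5991 of 9953 tested genes. Over the MYB genes at or above 1 RPKM with recovered libraries the median absolute log2 ratio was 0.15 in jmj28, 0.38 in JMJ28np5-OE and 0.23 in WT. Over all genes at or above 1 RPKM it was 0.12 in jmj28, 0.18 in JMJ28np5-OE and 0.11 in WT. Without the shallower JMJ28np5-OE library, 3 of the 7 members were still at least 1.5-fold lower in jmj28, namely MYB77, MYB96 and MYB90, with log2 ratios of RPKM means of -1.42, -0.78 and -5.20. The others were at -0.40 (MYB51), -0.28 (MYB3), -0.29 (MYB30) and -0.37 (MYB73). Against WT the values without that library were 0.73 for MYB77, 0.65 for MYB96 and 0.37 for MYB73.

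Genes of touch and early stress, which respond within minutes to handling and wounding, were likewise higher in the shallower JMJ28np5-OE library, in 11 of 11. In WT 8 of 11 were higher in the deeper library, while the called MYB genes with recovered WT libraries were split 3 and 3. Their summed level over 11 genes was 58.9 RPKM from implied means in jmj28, 240 and 392 RPKM in the deeper and shallower JMJ28np5-OE libraries and 155 and 94.2 RPKM in WT, and none of the 11 was at 0. By the authors' deposited test 4 of 11 were lower in jmj28 than in WT and 9 of 11 higher in JMJ28np5-OE than in WT, with medians of -1.16 and 1.47. Over all tested genes the shares of these calls were 1.1% and 2.87%. Of the 6 called MYB genes with 4 recovered libraries, MYB77 and MYB96 had the same order of libraries as this sum, MYB30, MYB3 and MYB51 did not, and MYB90 ran the other way within both genotypes. For the marker lists that follow, 7.29% of all tested genes were called lower and 4.12% higher in jmj28 than in JMJ28np5-OE. The shares called higher than in WT were 0.208% in jmj28 and 2.87% in JMJ28np5-OE. Floral markers summed to 7.03 RPKM in jmj28, 20.5 RPKM in JMJ28np5-OE and 8.25 RPKM in WT as sums of means, and none was at 0. Of these 8 markers 4 were called higher in JMJ28np5-OE than in WT and 6 lower in jmj28 than in JMJ28np5-OE. Root markers summed to 1143 RPKM in jmj28, 904 RPKM in JMJ28np5-OE and 1052 RPKM in WT, with 2 of 10 called higher in jmj28 than in WT and 4 of 10 higher than in JMJ28np5-OE. Green leaf markers summed to 20094 RPKM in jmj28, 22051 RPKM in JMJ28np5-OE and 20651 RPKM in WT. Of these, LHCB3 was called higher in JMJ28np5-OE than in WT, and LHCB3 and RCA lower in jmj28 than in JMJ28np5-OE. The part of these differences in the MYB values was not tested.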

How the data were processed

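Total RNA of 14-day-old seedlings was made into libraries with a TruSeq kit that does not mark strand and read as pairs of 150 bases on a NovaSeq 6000, per the labels' protocols and the series text. There were 6 libraries, 2 for each of 3 genotypes. Per the submitters' processing notes the build is TAIR10. Aligner, counter and test: not given in the sources used here.

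Each of 3 deposited tables pairs 2 genotypes and holds the authors' log2 fold change, fold, p-value, FDR and Bonferroni p, per the file headers, and no standard error. Their level column is the higher genotype mean, in RPKM as the authors' deposited numbers show when multiplied by exon length. A deposited shorter list holds log2 fold changes, folds and p-values of 533 genes. The FDR counts all 34262 listed genes.

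The tables used here hold genotype means only, so calls are the authors' FDR under 0.05. Whole reads were solved from the RPKM means with a tolerance of 1e-07 reads, which gave 1 solution for 98.9% of 23401 highest means and more than 1 for 0. On simulated data 8823 of 8823 means came back correct. Implied means divide a recovered mean by the deposited fold after removing a median shift of -0.03, 0.02 or -0.06 (log2, jmj28 against WT, JMJ28np5-OE against WT, jmj28 against JMJ28np5-OE). Over genes above 5 RPKM they then differed from recovered means by a median of 0.00292 to 0.00366 (log2). At 10632893 to 19693228 reads, 1 read per kilobase is worth 0.0940 to 0.0508 RPKM.

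The members and all gene lists were chosen with earlier results of these data known, and lists were described by counts and medians without a test. Named genes are every called member, PAP1 and PAP2, the 3 uncalled members with the smallest p in each comparison, the 2 best expressed members of each role, up to 3 pathway genes with the smallest FDR per list and comparison, and JMJ28. MYB112, MYB92 and pathway genes beyond 3 were named after their values were seen. Of the tested members 14 overlap another tested gene. Alternatives were other FDR thresholds, Bonferroni, adjustment over genes with reads, a fold minimum, a minimum of 1 RPKM, pseudocounts and leaving out each recovered library. Python 3.11.15, pandas 2.3.3, numpy 2.4.6 and matplotlib 3.10.9 were used.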

Additional observations from a re-analysis of the deposited data

How the results depend on the processing

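With 2 libraries per genotype and no standard error in the deposited tables, precision is known only through the spread of recovered libraries. Of 136 recomputed log2 fold changes of called members and PAP1, 56 belong to called values, and 0 of these changed sign. With pseudocounts of 0.1 and 1, MYB90 in jmj28 against JMJ28np5-OE came to -3.77 and -1.67. Without the shallower JMJ28np5-OE library MYB3 and MYB30 came to -0.28 and -0.29 in jmj28 against JMJ28np5-OE, beside -0.80 and -0.61 as deposited.

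The count of MYB genes called in jmj28 against WT was 0 under an FDR of 0.01 or 0.1, Bonferroni adjustment, adjustment over genes with reads, a 1.5-fold minimum and a 1 RPKM minimum, and 3 under an unadjusted p under 0.05 with at least 1.5-fold. For JMJ28np5-OE against WT the count of 3 became 0 with Bonferroni adjustment, 9 under the unadjusted rule and 4, with MYB36 added, at an FDR of 0.1, over genes with reads or with the 1 RPKM minimum. For jmj28 against JMJ28np5-OE the count of 7 became 1 (MYB77) with Bonferroni adjustment, 12 under the unadjusted rule, 6 at an FDR of 0.01, 10 at 0.1, 8 over genes with reads and 9 with the 1 RPKM minimum. In the last 3 settings 1 of the calls, MYB3R4, is higher in jmj28, so the split into 7 lower and 0 higher does not hold there. The cause was not tested, but the unadjusted rule admits more genes and Bonferroni fewer by construction.

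Leaving out 1 recovered library kept 2 to 3 of the 3 called members at least 1.5-fold higher in JMJ28np5-OE than in WT. It was 3 of 3 without the deeper JMJ28np5-OE library, 2 of 3 without the shallower, and 2 of 2 without either WT library, since the WT libraries of MYB73 were not recovered. In jmj28 against JMJ28np5-OE it kept 1 to 7 of the 7 at least 1.5-fold lower, where 3 is the count without the shallower JMJ28np5-OE library, 7 that without the deeper, and 1 that without either jmj28 library, for which MYB73 alone had recovered libraries. The read recovery gave the same solutions at a tolerance of 1e-09. No paired analysis was possible because the deposited columns are genotype means that carry no replicate number.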
